A study of Mus musculus with 15 samples.

Results

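The 9 genes described here encode feedback inhibitors and outputs of the ERK branch of the mitogen-activated protein kinase (MAPK) pathway: the dual-specificity phosphatases Dusp4, Dusp5 and Dusp6, the Sprouty genes Spry1, Spry2 and Spry4, the Spred genes Spred1 and Spred2, and the transcription factor gene Etv5. They were taken by name, with earlier results of these data known, as 9 of the 38315 genes of the deposited table, and all 9 passed the filter on low values. Total RNA was sequenced in bulk from 15 mouse bone marrow samples in 3 groups. The first group was marrow with acute myeloid leukaemia (AML) from 7 transgenic mice of the genotype NUP98-NSD1/FLT3-ITD. NUP98-NSD1 fuses parts of a nucleoporin and of a histone methyltransferase, and the ITD allele carries a tandem repeat inside FLT3, a receptor tyrosine kinase. Wild-type mice gave both normal groups, 4 whole marrows and 4 lineage-negative marrows, the latter depleted of cells that carry antigens of mature blood lineages. The AML marrow was labelled as tissue, with no purification of leukaemic cells given. The promoter of the transgenes, the age and sex of the mice and any treatment are not given in the sources used here. The labels number separate samples within each group but do not describe how cells were pooled, so p-values measure the spread between these samples.

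Growth factor receptors such as FLT3, KIT and the colony-stimulating factor receptors activate RAS, which switches on RAF, MEK and then ERK. ERK activity raises the transcription of its own inhibitors, so levels of these genes are often read as an output of the pathway. DUSP6, in the cytoplasm, and DUSP5, in the nucleus, are phosphatases that remove the activating phosphates from ERK, and DUSP4 is a nuclear phosphatase that acts on ERK and other MAPKs. Sprouty proteins act higher up, between the receptor and RAF. SPRED proteins bring neurofibromin, a RAS GTPase activating protein, to the membrane. ETV5 belongs to the PEA3 group of ETS factors and is an ERK target in many cell types. In blood formation, Sprouty and SPRED proteins are known as brakes on cytokine signalling in progenitors.

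Promoter sequences are shown for the Sprouty genes Spry1 and Spry2, which were lower in AML than in lineage-negative marrow, and for Dusp6, which was not lower, so that the 3 windows can be read side by side. Each holds the 250 bases before the transcription start in RefSeq (GRCm38.p6), written 5′ to 3′ in the direction of the gene. Capitals mark matches, on either strand, to an ETS core (CGGAAG) or a GC box (GGGCGG).
Spry1, chr3:37639697-37639946, plus strand: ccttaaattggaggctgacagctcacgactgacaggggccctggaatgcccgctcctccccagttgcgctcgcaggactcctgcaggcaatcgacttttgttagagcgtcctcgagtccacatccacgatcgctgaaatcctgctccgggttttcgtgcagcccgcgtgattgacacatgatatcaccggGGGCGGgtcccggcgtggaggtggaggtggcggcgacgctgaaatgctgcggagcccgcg
Spry2, chr14:105896820-105897069, minus strand: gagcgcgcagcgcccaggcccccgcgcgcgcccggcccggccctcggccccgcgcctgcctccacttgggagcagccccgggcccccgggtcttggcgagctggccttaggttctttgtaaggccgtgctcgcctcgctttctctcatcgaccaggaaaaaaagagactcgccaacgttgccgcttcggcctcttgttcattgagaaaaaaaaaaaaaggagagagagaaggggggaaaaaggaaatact
Dusp6, chr10:99262981-99263230, plus strand: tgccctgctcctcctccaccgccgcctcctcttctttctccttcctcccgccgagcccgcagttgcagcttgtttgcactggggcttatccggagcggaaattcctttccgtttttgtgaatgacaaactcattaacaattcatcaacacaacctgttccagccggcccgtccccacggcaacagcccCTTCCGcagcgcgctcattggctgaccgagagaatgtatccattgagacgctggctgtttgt
The Spry1 window held a GC box at -60 to -55 relative to the start, and the Dusp6 window held an ETS core, on the opposite strand, at -62 to -57. The Spry2 window held neither, nor did any of the 3 hold an AP-1 site (TGANTCA), a cyclic AMP response element (TGACGTCA) or an E-box (CACGTG). The GC content was 62.4% for Spry1, 62.4% for Spry2 and 56.4% for Dusp6, against a median of 52.4% over 32851 promoter windows of the same length. Of the 9 genes, 7 had an entry in the promoter table. An ETS core was present in 3 of these 7, Dusp6, Spred1 and Spred2, and in 13.6% of all promoters. A GC box was present in 5 of the 7, at 1 of the 2 starts of Etv5 and in Spry1, Dusp5, Spred1 and Spred2, and in 32.7% of all promoters. In Spred2 the 2 motifs overlapped. The other motifs were in 0 of the 7, against 6.75% of all promoters for AP-1, 1.55% for the cyclic AMP response element and 6.02% for the E-box. These matches describe letters in a short window and carry no information on binding.

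Values are normalized counts, which are estimated reads per gene divided by a size factor for each library. The estimated depth was 20.3 to 35.1 M reads (M, mega) for AML, 11.4 to 17.2 M for whole marrow and 20.3 to 28.1 M for lineage-negative marrow, so whole marrow gave the least precise values for low genes. A floor of 3 reads corresponded to 1.96 to 4.09 normalized counts. Across 18941 genes that passed the filter on low values, AML differed from whole marrow by a median of 0.6727 on the log2 scale, lineage-negative marrow by 0.5892, and AML from lineage-negative marrow by 0.0242. Scaling by the trimmed mean of M values (TMM) brought the 3 medians to 0.0066, -0.0983 and 0.0509. Comparisons with whole marrow are therefore given under both scalings. TMM scaling multiplied whole marrow replicate 1, the library of lowest depth, by 2.12 and the other whole marrows by 1.23 to 1.27. It multiplied the AML and lineage-negative libraries by 0.839 to 0.930. Olfactory and vomeronasal receptor genes, which blood cells are not known to use, stood at 1.88 to 3.54 normalized counts per kilobase of exon in whole marrow and at 0.0969 to 0.137 in lineage-negative marrow. Replicates 6 and 5 of the AML group stood at 0.996 and 0.344 and the remaining AML libraries at 0.120 to 0.191. The product of this level and a gene's exonic length is called its background below.

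The marrow labels were read against marker genes. Summed lineage antigens (7 of 7 in the table) stood at 991 to 1921 in lineage-negative marrow, 15501 to 27732 in whole marrow and 11222 to 32626 in AML. Mature neutrophil markers, 7 genes, summed to 860.1 to 13747 in lineage-negative marrow, 339383 to 927693 in whole marrow and 307284 to 1116980 in AML. Lineage-negative marrow still held eosinophil transcripts, with sums over 4 genes of 7149 to 38138 against 21165 to 48550 in whole marrow. Its T and NK cell markers, 6 genes, summed to 1425 to 2024, above the 605 to 1158 of whole marrow. Nkg7 carried that sum, at 1168 to 1801 against 290 to 681 in whole marrow. Cd3e, Cd3d, Cd3g, Lck and Ncr1 went the other way, with lower means in lineage-negative than in whole marrow. Summed stem and progenitor markers (Kit, Cd34, Ly6a, Gata2 and Procr) stood at 13187 to 17222 in lineage-negative marrow, 1087 to 2101 in whole marrow and 2686 to 5275 in AML. Kit, Cd34 and Gata2 carried that sum, and Ly6a went the other way, at 30.9 to 87.3 in lineage-negative marrow, 75.4 to 281 in whole marrow and 418 to 1855 in AML. Lineage-negative marrow was also high in mast cell and basophil markers, with sums over 4 genes of 21575 to 38800 against 172 to 2915 in AML. AML marrow was high in summed monocyte and macrophage markers, with sums over 6 genes of 53597 to 87385 against 12437 to 27393 in whole marrow and 9951 to 16363 in lineage-negative marrow. Ccr2, Ly6c2 and Csf1r carried that sum. Vcam1 and C1qa had lower medians in AML than in whole marrow, at 638 against 1481 and 331 against 410. The part of these cell types in the differences given below was not tested. In bulk marrow, fewer cells of a type and less RNA per cell cannot be told apart.

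**Figure D1:**
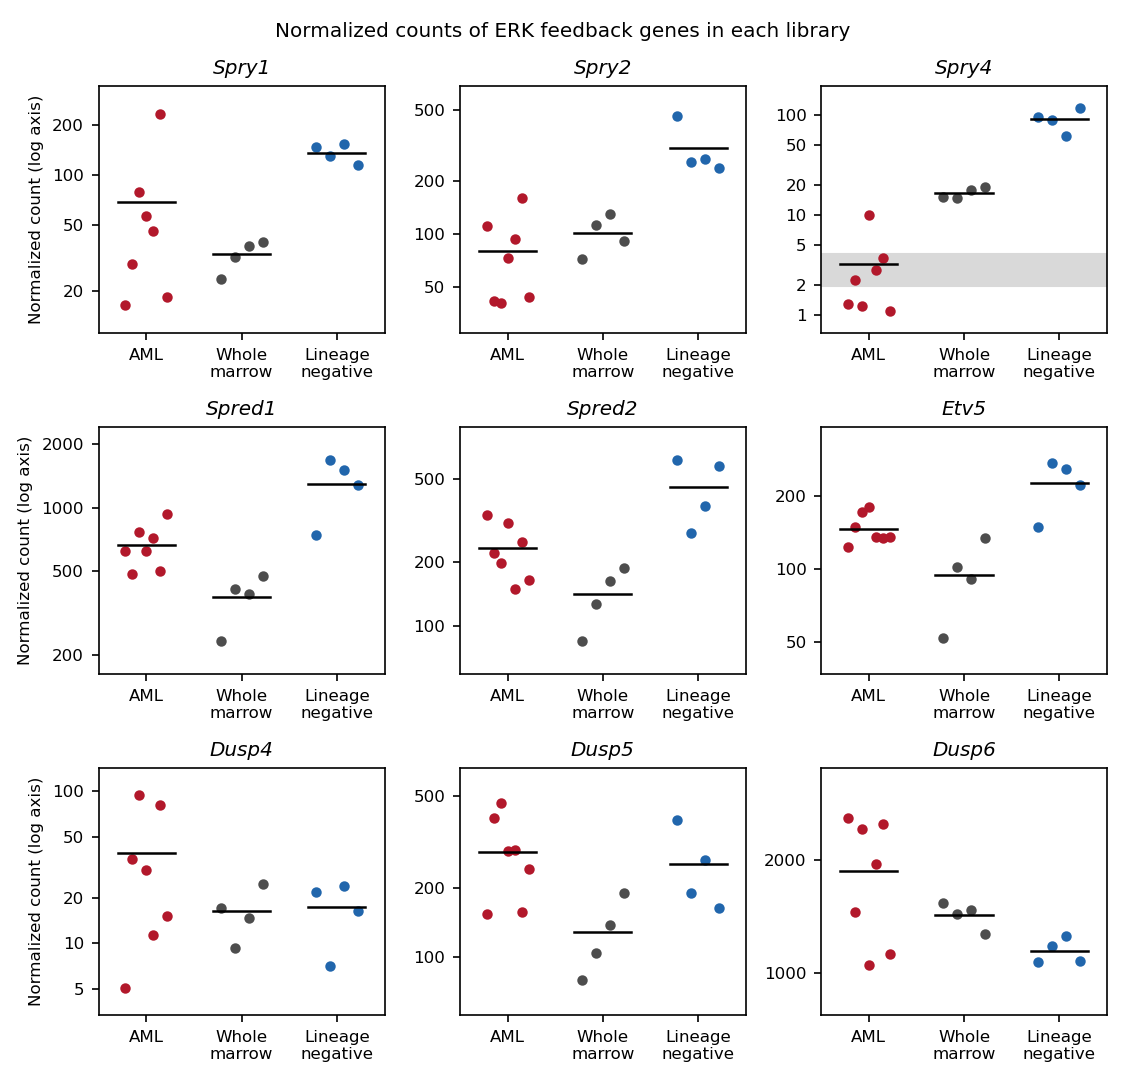
Normalized counts (log axis) of the 9 feedback and output genes in each of 15 libraries, 7 of AML, 4 of whole marrow and 4 of lineage-negative marrow. Points are libraries, bars are group means, and the grey band in the Spry4 panel is the range of the 3-read floor over the libraries. Spry2 and Spry4 were lower in all 7 AML libraries than in every lineage-negative library, whereas the Dusp panels overlapped.

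AML was compared with lineage-negative marrow to set the leukaemia against normal marrow enriched for progenitors. The 3 Sprouty genes fell in AML and no phosphatase gene passed the thresholds. The AML means of the Spred genes and Etv5 lay between those of the normal groups under the deposited scaling. Under TMM scaling they were close to whole marrow. They then stood at 588 against 521 for Spred1, 207 against 193 for Spred2 and 130 against 129 for Etv5. Of the 9 genes, 0 were called higher and 3 lower. A call needed a limma p below 0.05 after Benjamini-Hochberg adjustment over all 18941 genes and a log2 difference of 1 or more in either direction. Among all these genes 17.7% were called higher and 12.5% lower. The median log2 difference of the 9 genes was -0.94. The same 3 Sprouty genes were called lower under TMM scaling, where 12.0% of all genes were. After subtraction of the background the counts were again 0 higher and 3 lower, against 17.1% and 12.6% of 17424 genes.

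Spry4 had the lowest levels in AML of the 9 genes. Lineage-negative replicates 1 to 4 held 97.1, 90.8, 62.6 and 120 normalized counts of Spry4, and the whole marrows held 15.3, 14.7, 17.7 and 19.1. In the 7 AML libraries Spry4 ranged from 1.08 through a median of 2.25 to 10.1, and 6 of the 7 values were at or under the 3-read floor. All AML libraries lay below all normal libraries, with no overlap. Spry4 was 92.6 ± 23.7 (SD, n = 4) in lineage-negative marrow and 3.21 ± 3.20 (SD, n = 7) in AML, a log2 difference of -4.69 (SE 0.43, limma adjusted p = 3.7e-08). At so few reads this difference depends on the pseudocount, and it was -5.19 with a pseudocount of 0.1 and -3.61 with 5.

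Spry2 encodes a Sprouty protein that binds the adaptor GRB2 and the ubiquitin ligase CBL. Its lineage-negative values were 467, 256, 264 and 237, and its whole marrow values 71.8, 113, 130 and 91.4. In AML Spry2 ranged from 40.4 through a median of 72.7 to 160. All 7 AML values lay below the lowest lineage-negative value, and they overlapped the range of whole marrow. The mean was 80.5 ± 44.6 (SD, n = 7) in AML and 306 ± 108 (SD, n = 4) in lineage-negative marrow. The log2 difference was -2.04 (SE 0.35, limma adjusted p = 8.9e-05).

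Spry1 was the most uneven of the Sprouty genes within AML. Its lineage-negative values were 148, 130, 153 and 115, and its whole marrow values 23.6, 32.2, 37.6 and 39.6. In AML it ranged from 16.5 through a median of 46.2 to 232, a 14.0-fold span. Of the 7 AML libraries, 6 lay below all lineage-negative libraries, while replicate 6, at 232, lay above them all. The log2 difference was -1.53 (SE 0.51, limma adjusted p = 0.0178). Without AML replicate 6 it was -1.92, with an adjusted p of 0.000528.

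Spred1 is the most abundant Spred gene in these samples by normalized count. Lineage-negative replicate 1 held 739 and the other 3 held 1272 to 1676, while AML ranged from 486 through a median of 625 to 930. In AML, 5 of 7 libraries were below the lowest lineage-negative one. The log2 difference of Spred1 was -0.94 (SE 0.24, limma adjusted p = 0.0035), past the p threshold and short of the fold threshold. It passed both without lineage-negative replicate 1, at -1.18, and without AML replicate 7, at -1.02. Spred2 had values of 615, 275, 372 and 574 in lineage-negative marrow and ranged from 150 through 223 to 337 in AML. Its log2 difference was -0.96 (SE 0.28, limma adjusted p = 0.0088), again short of the fold threshold. It passed the threshold without AML replicate 1, at -1.06, without AML replicate 4, at -1.04, and without lineage-negative replicates 2 or 3, at -1.18 and -1.03.

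Etv5 had the narrowest spread within AML, from 123 through a median of 135 to 179 normalized counts. In lineage-negative replicates 1 to 4 it was 149, 271, 258 and 221, so the ranges overlapped only through replicate 1 of that group. The log2 difference was -0.59 (SE 0.25, limma adjusted p = 0.0593), with a 95% confidence interval of -1.11 to -0.07.

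Dusp6 was the most abundant of the 9 genes. In AML it ranged from 1048 through a median of 1947 to 2582, and in lineage-negative marrow it was 1065, 1177, 1248 and 1070. Of the 7 AML libraries, 5 lay above and 1 below all lineage-negative libraries. The log2 difference of Dusp6 was 0.63 (SE 0.23, limma adjusted p = 0.0340), under the fold threshold. Dusp5 was 154 to 468 in AML, with a median of 291, and 397, 191, 264 and 164 in lineage-negative marrow. The ranges overlapped, and the log2 difference of 0.15 had an interval of -0.53 to 0.83. Dusp4 was low and varied 18.5-fold within AML, from 5.09 through a median of 30.4 to 94.4. In lineage-negative marrow it was 21.8, 7.05, 23.8 and 16.3. Its log2 difference was 0.70, with an interval of -0.58 to 1.98.

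**Figure D2:**
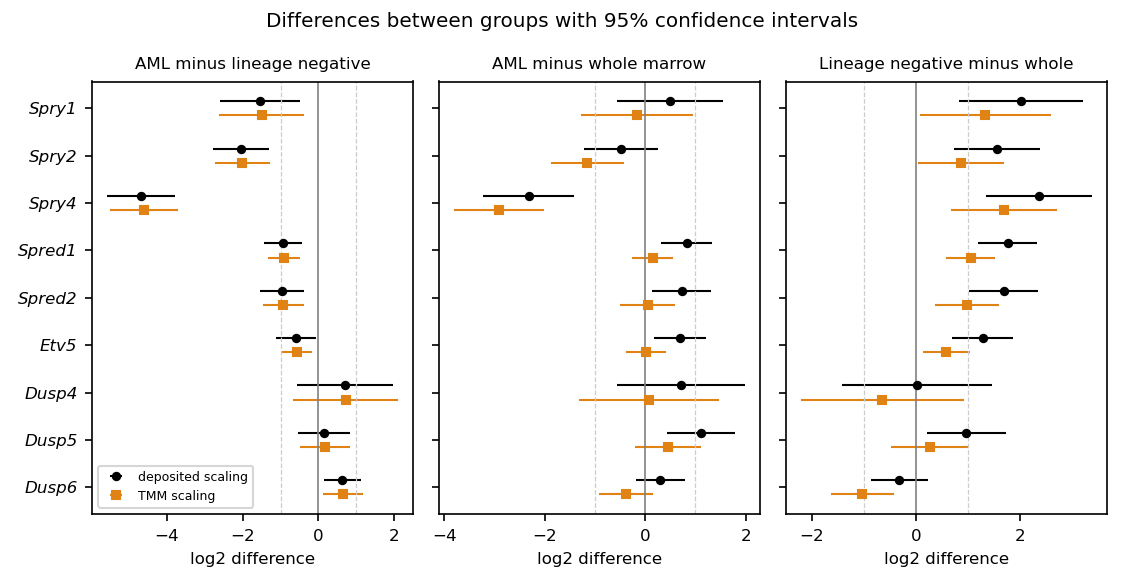
Log2 differences between group means of log2(normalized count + 1) for each gene, with 95% confidence intervals from limma. Black points use the deposited scaling and orange squares TMM scaling, and dashed lines mark the fold threshold. Both scalings nearly coincide for AML against lineage-negative marrow, and they lie apart in the 2 comparisons with whole marrow.

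The comparison of AML with whole marrow sets the leukaemia against unfractionated normal marrow and shares its 7 AML libraries with the comparison above. Spry4 fell and Dusp5 rose under the deposited scaling, so 1 of the 9 genes was called higher and 1 lower. Of all genes, 27.3% were called higher and 11.3% lower. Under TMM scaling 0 of the 9 were called higher and 2 lower, Spry4 and Spry2, against 4.92% and 15.8% of all genes. After subtraction of the background 2 were higher, Dusp5 and Dusp4, and 0 lower, against 41.6% and 3.99% of all genes. The median log2 difference of the 9 genes was 0.69, beside 0.6727 for all genes, and after TMM scaling it was 0.019, beside 0.0066.

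Spry4 was 16.7 ± 2.06 (SD, n = 4) in whole marrow, a log2 difference of -2.32 for AML (SE 0.43, limma adjusted p = 0.00016). Under TMM scaling the difference was -2.91. The background for the exonic length of Spry4 was 16.8, 11.1, 11.1 and 8.93 in whole marrow replicates 1 to 4, close to the values themselves. After subtraction of the background the difference was -1.11, with an adjusted p of 0.150, and Spry4 was no longer called. In lineage-negative marrow the background of Spry4 was 0.461 to 0.653, far under its values there.

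Spry2 differed from whole marrow by -0.48 (SE 0.35, limma adjusted p = 0.244), and by -1.15 under TMM scaling (adjusted p = 0.0147). Spry1 differed by 0.49 (adjusted p = 0.406) and, under TMM scaling, by -0.17. The direction of Spry1 against whole marrow therefore turned with the scaling.

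**Figure D3:**
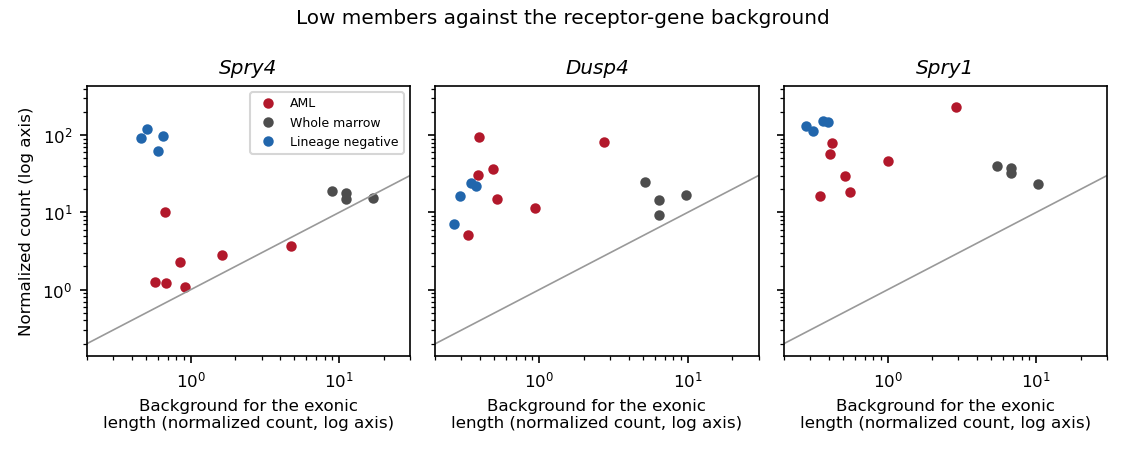
Normalized counts of Spry4, Dusp4 and Spry1 in each library (log axis) against the background expected from the receptor genes for the same exonic length (log axis). The grey line marks equality. Whole marrow Spry4 lay near the line, and lineage-negative Spry4, at 62.6 to 120, lay far above it.

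Dusp5 was 79.8, 105, 138 and 191 in whole marrow, and 5 of the 7 AML libraries lay above all of these. The log2 difference of Dusp5 was 1.12 (SE 0.32, limma adjusted p = 0.0056), and 0.45 under TMM scaling (adjusted p = 0.274). It fell under the fold threshold without AML replicate 3, at 0.99, and without whole marrow replicate 1, at 0.92. Dusp6 was 1535, 1431, 1469 and 1266 in whole marrow, within the range of AML. Its difference was 0.30 (limma adjusted p = 0.260) and turned to -0.38 under TMM scaling. TMM-scaled Dusp6 was 3250 in whole marrow replicate 1 and 1564 to 1861 in the other whole marrows. Dusp4 was 17.1, 9.38, 14.6 and 24.6 in whole marrow, where its background averaged 6.89. Its difference was 0.72 (limma adjusted p = 0.312), and 1.56 after subtraction of the background (adjusted p = 0.0441), the setting in which Dusp4 was called higher.

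Spred1 was 234, 413, 389 and 476 in whole marrow, below all 7 AML values. The difference of Spred1 was 0.82 (SE 0.24, limma adjusted p = 0.0061), under the fold threshold, and 0.15 under TMM scaling. Spred2 was 84.4, 127, 163 and 188 in whole marrow, and 5 of 7 AML values lay above these. Its difference was 0.73 (adjusted p = 0.0298), and 0.054 under TMM scaling. Etv5 was 52.1, 102, 90.6 and 133 in whole marrow, with 6 of 7 AML values above. Its difference was 0.69 (adjusted p = 0.0210), and 0.019 under TMM scaling. The differences of Spred1, Spred2 and Etv5 from whole marrow were thus close to the median of all genes under either scaling.

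The comparison of the normal groups sets normal marrow depleted of most lineage antigens against unfractionated normal marrow. Sprouty, Spred and Etv5 transcripts, 6 of the 9 genes, were higher in lineage-negative than in whole marrow under the deposited scaling, and 0 were lower. Of all genes, 33.1% were called higher and 17.2% lower. These 6 genes had no overlap between the groups, nor had Dusp6, whose lineage-negative values all lay lower. Under TMM scaling Etv5 overlapped. The share of all genes without overlap was not computed, so the absence of overlap is not read as a trait of these genes. Under TMM scaling Spry4 and Spred1 were called higher and Dusp6 lower, 2 and 1 of the 9 genes, against 10.8% and 24.8% of all genes. After subtraction of the background 7 were higher and 0 lower, against 44.4% and 9.44%. The 9 genes had a median log2 difference of 1.56, beside 0.5892 for all genes, and of 0.86 after TMM scaling, beside -0.0983.

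By gene, the log2 difference between lineage-negative and whole marrow was 2.37 for Spry4, 2.02 for Spry1, 1.76 for Spred1, 1.69 for Spred2, 1.56 for Spry2 and 1.28 for Etv5. Limma adjusted p-values for these 6 ran from 1.8e-05 for Spred1 to 0.0044 for Spry1. Under TMM scaling the differences were 1.69 for Spry4, 1.33 for Spry1, 1.06 for Spred1, 0.99 for Spred2, 0.86 for Spry2 and 0.58 for Etv5. Those of Spry1 and Spry2 then had adjusted p-values of 0.0666 and 0.0710. Dusp6 went the other way, at -0.32 (adjusted p = 0.293) and at -1.03 under TMM scaling (adjusted p = 0.0056). TMM-scaled Dusp6 was 3250 in whole marrow replicate 1, 1564 to 1861 in the other whole marrows and 929 to 1087 in lineage-negative marrow. The TMM fit was not run without whole marrow replicate 1. Dusp5 differed by 0.97 (adjusted p = 0.0265), under the fold threshold, and Dusp4 by 0.019 with an interval of -1.42 to 1.46. The sums of stem and progenitor, mast cell and basophil, and megakaryocyte markers were higher in lineage-negative marrow, the last over 5 genes at 2107 to 3235 against 581 to 1652 in whole marrow and 74.8 to 491 in AML. Single markers could go the other way, as Ly6a did, and the platelet gene Ppbp was at 2.72 to 60.8 against 142 to 560 in whole marrow. The part of these cells in the Sprouty and Spred levels was not tested.

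Levels were also compared between the 9 genes, as normalized counts per kilobase of exon. In AML the order ran from Dusp6 at 595 through Dusp5 at 116, Spred1 at 97.9, Spred2 at 50.4, Spry2 at 38.6, Etv5 at 35.7, Spry1 at 23.5 and Dusp4 at 14.3 to Spry4 at 0.676. Dusp6 did not overlap the next gene in AML, and every other neighbouring pair did. In lineage-negative marrow Spred1 at 192 and Spry2 at 147 came next after Dusp6 at 364, followed by Dusp5 at 103. Spry4 at 19.5 lay above Dusp4 at 6.29 there, without overlap, the reverse of the order in AML. In whole marrow Dusp6 stood at 455, Spred1 at 55.7, Dusp5 at 51.9 and Spry2 at 48.7, and from Spred1 downward each neighbouring pair overlapped.

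The share of each gene in the summed level per kilobase of all 9 depends on no scaling between libraries. Sprouty genes made up 17.96% to 27.3% of the sum in lineage-negative marrow, 7.15% to 10.9% in whole marrow and 3.70% to 13.1% of it in AML, with a median of 5.16%. The 3 phosphatase genes made up 43.2% to 47.9% in lineage-negative marrow, 70.5% to 82.6% in whole marrow and 64.1% to 80.3% in AML. For both shares all 7 AML libraries lay on the side of whole marrow and outside the range of lineage-negative marrow. Spred genes made up 22.4% to 32.5% in lineage-negative marrow, 8.25% to 15.96% in whole marrow and 10.6% to 24.8% in AML. The ratio of Dusp6 to Spry2 was taken from normalized counts, not divided by length. It was 2.28 to 4.72 in lineage-negative marrow, 11.3 to 21.4 in whole marrow and 14.4 to 59.5 in AML. Within the Sprouty sum, Spry4 made up 6.83% to 14.2% in lineage-negative marrow, 4.55% to 7.02% in whole marrow and 0.454% to 3.79% in AML. No background was subtracted from any of these shares, and the whole marrow values of Spry4 were close to its background. The shares are descriptions of the libraries and were given no test.

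**Figure D4:**
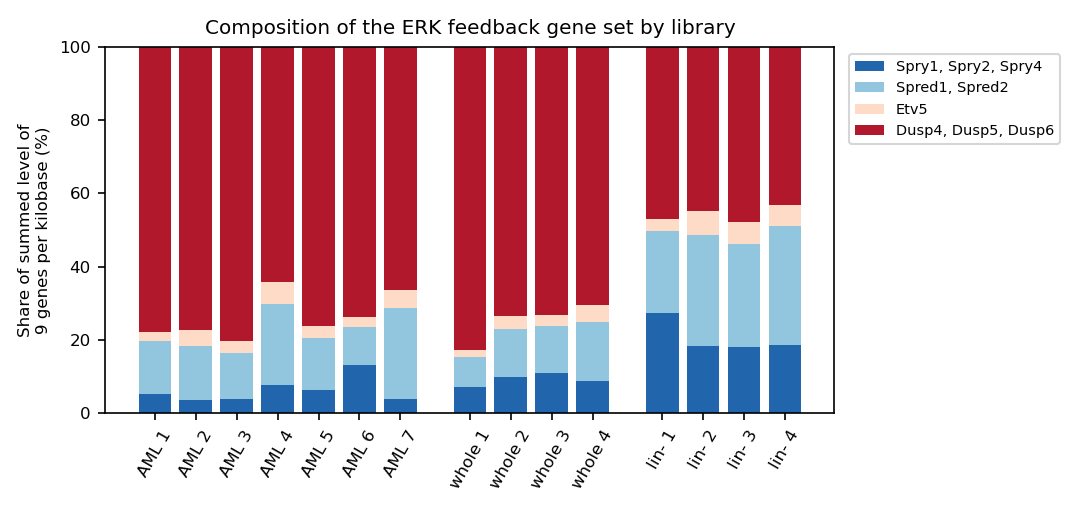
Share (%) of each family in the summed level per kilobase of the 9 genes, by library, with the families stacked to 100%. Phosphatases took 64.1% to 80.3% of the AML level against 43.2% to 47.9% for lineage-negative marrow, and the Sprouty share was 3.70% to 13.1% and 17.96% to 27.3%.

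Among the 7 AML libraries the genes varied to different degrees. The coefficient of variation of normalized counts was 14.4% for Etv5, 23.4% for Spred1, 30.3% for Spred2, 35.3% for Dusp6, 40.9% for Dusp5 and 55.5% for Spry2. It was 90.0% for Dusp4 and 111% for Spry1, and 99.7% for Spry4, whose values were near the floor. Dusp4 and Spry1 were highest in AML replicates 3 and 6, at 94.4 and 81.4 for Dusp4 and 79.4 and 232 for Spry1. Of 45 relations within AML, between pairs of the 9 genes and of each with Flt3, 0 passed Benjamini-Hochberg adjustment and 4 had an unadjusted p under 0.05 in exact two-sided permutation tests of Pearson's r. The smallest p for Pearson's r belonged to Spry2 and Flt3, with r = -0.86 (exact p = 0.0060, adjusted p = 0.268) and Spearman's rho = -0.75 (exact p = 0.0663). Without the 2 libraries farthest from the median of the first-named gene of the pair, r was -0.69. The relation of Dusp4 with Spry1 had r = 0.79 (exact p = 0.0345, adjusted p = 0.388) and rho = 0.79 (exact p = 0.0480), and r was 0.75 without the 2 farthest libraries. The other 2 relations moved more without the 2 farthest libraries under the deposited scaling. That of Dusp5 with Flt3 went from r = 0.77 (exact p = 0.0288, adjusted p = 0.388; rho = 0.64, exact p = 0.139) to 0.23. That of Dusp5 with Spry2 went from r = -0.82 (exact p = 0.0308, adjusted p = 0.388; rho = -0.82, exact p = 0.0341) to -0.47. Under TMM scaling both moved little, from 0.76 to 0.72 for Dusp5 with Flt3 and from -0.80 to -0.76 for Dusp5 with Spry2. By Spearman's rho the smallest p was that of Spred1 with Flt3, at rho = 0.86 (exact p = 0.0238, adjusted p = 0.497). The r of that pair was 0.65 (exact p = 0.117), and 0.94 without the 2 farthest libraries. Its rho was 0.68 under TMM scaling (exact p = 0.110).

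The genes with the most similar patterns were found by the root mean square (RMS) difference of centred log2 values over all 15 samples, over 10430 candidate genes whose mean was 100 or more. Nearest to Etv5 were Bag4, at 0.15, and Pyurf, at 0.16. Nearest to Spred1 were Selenoi, at 0.18, and Zfp932, at 0.21. For Spred2 they were Slc7a1, at 0.23, and Dot1l, at 0.26. Dusp6 was nearest to Osbpl2, at 0.30, and Stat4, at 0.31, and Dusp5 to Itpr3 and Dhx57, both at 0.32. Spry1 was nearest to Pear1, at 0.39, and Ikzf2, at 0.47. Spry2 was nearest to Myo19 and Pabpc4, both at 0.44, and Spry4 to Cttn, at 0.51, and Cyp11a1, at 0.55. Dusp4 was nearest to Gimap6, at 0.54, and Gimap5, at 0.58. These distances are descriptions over samples that share the same libraries and scaling.

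The rest of the pathway was read from lists of 67 further genes, of which 66 were in the table and 64 were kept. Against lineage-negative marrow, 15 of the 64 were called higher in AML and 7 lower, against 17.7% and 12.5% of all genes. The same 7 were called lower under TMM scaling, against 12.0% of all genes. The median log2 difference of the 64 was 0.36, beside 0.0242 for all genes. Against whole marrow 17 were called higher and 2 lower, where 27.3% and 11.3% of all genes were. Under TMM scaling the counts were 5 and 3, against 4.92% and 15.8%, and 5 and 2 genes were called under both scalings. The counts by role against lineage-negative marrow that follow are over few genes and stand beside the same 17.7% higher and 12.5% lower.

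Upstream of RAS, 4 of 7 receptor genes were higher and 1 was lower in AML than in lineage-negative marrow. Csf2ra, a subunit of the receptor for granulocyte-macrophage colony-stimulating factor, differed by 2.37 on the log2 scale, Csf3r by 1.97, Csf1r by 1.92 and Csf2rb by 1.38. The mean of Csf3r was 4880 in AML, 1105 in lineage-negative marrow and 5483 in whole marrow. Kit, the stem cell factor receptor, was lower by 2.62. It ranged from 5130 to 6667 normalized counts in lineage-negative marrow, from 547 to 1730 in AML and from 404 to 882 in whole marrow. Flt3 ranged from 870 through a median of 3218 to 4484 in AML and from 178 to 330 in whole marrow, a log2 difference of 3.33 (adjusted p = 3.4e-07). Against lineage-negative marrow, at 1318 to 1985, the difference of Flt3 was 0.65 (adjusted p = 0.119). The counts do not separate the duplicated allele from the normal one.

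Between receptor and RAS, 5 of 14 adaptors and exchange factors were higher and 1 was lower. The RAS guanine nucleotide exchange factors Rasgrp4, Rasgrp3 and Rasgrp1 differed by 4.24, 3.41 and 2.81. Rasgrp4 ranged from 1780 to 3936 in AML, from 848 to 1624 in whole marrow and from 65.9 to 305 in lineage-negative marrow. Gab3 differed by 1.64 and Cbl, whose product is a ubiquitin ligase for receptors, by 1.38, while the docking adaptor gene Gab1 differed by -2.09. Of 8 genes of RAS GTPase activating proteins, Rasa3 was called higher, at 1.09, and 0 were called lower.

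In the kinase cascade, 2 of 12 genes were called higher against lineage-negative marrow, about the 17.7% of all genes, and 0 lower. Map2k1, which encodes MEK1, ranged from 2250 to 3368 in AML and from 915 to 1149 in lineage-negative marrow, with no overlap and a difference of 1.44 (adjusted p = 8.1e-06). Mapk3, which encodes ERK1, differed by 1.33. Of the 6 genes of ERK substrate kinases, 0 were called in either AML comparison under the deposited or TMM scaling.

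Of the other MAPK phosphatases, 0 of 7 were called higher and 2 lower, Dusp2 at -1.36 and Dusp8 at -1.44. Dusp2 ranged from 108 to 431 in AML and from 491 to 854 in lineage-negative marrow, without overlap. Dusp1 ranged from 545 to 5823 in AML and was not called in either AML comparison, at -0.56 against lineage-negative marrow (adjusted p = 0.342). Of the 3 measured relatives of the Sprouty, Spred and PEA3 families, Spred3 and Etv1 were kept, and neither was called between AML and lineage-negative marrow. Etv4 was not kept, with values of 0.944 to 8.64 in AML.

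Among other ERK outputs 3 of 8 were higher and 3 lower. The immediate early gene Egr1 differed by -2.67, Myc by -2.40 and Ier3 by -1.46. Phlda1 differed by 1.51 and Epha2 by 1.38. Il17rd, which encodes the feedback inhibitor SEF, ranged from 8.998 to 33.3 in AML and from 0 to 0.881 in lineage-negative marrow. Its values in whole marrow, 10.7 to 40.4, compare with an average background of 27.6 there. Against whole marrow, the genes called higher under both scalings were Flt3, Il3ra, Csf1r, Ccnd1 and Gab2, with deposited differences of 3.33, 2.17, 2.29, 1.89 and 1.71. Those called lower under both were Dusp8 and Etv1, at -4.81 and -1.85. After subtraction of the background Dusp8 was still called lower, at -5.03, while Etv1 turned to 0.52 (limma adjusted p = 0.630).

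**Figure D5:**
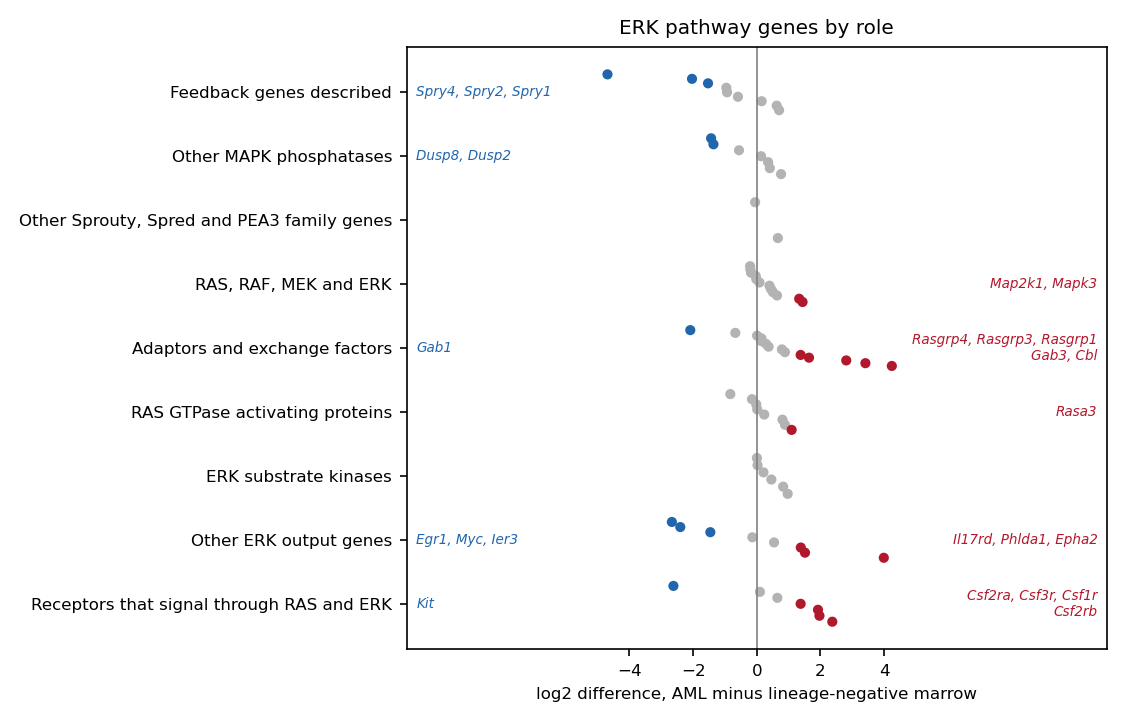
Log2 difference between AML and lineage-negative marrow for the 9 genes and 64 further pathway genes, in rows by role. Each point is a gene, red where called higher, blue where called lower and grey otherwise, and the names of called genes stand at the sides. The 3 Sprouty genes are blue, while Map2k1, Mapk3 and 4 of 7 receptor genes are red.

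The gene positions in the deposited table, with gene identifiers, were as follows. Spry1 (ENSMUSG00000037211) lay on chromosome 3 from 37694096 to 37698747 and Spry2 (ENSMUSG00000022114) on chromosome 14 from 106129381 to 106134253. Spred1 (ENSMUSG00000027351) lay on chromosome 2 from 116951855 to 117012760 and Spred2 (ENSMUSG00000045671) on chromosome 11 from 19874375 to 19974026. Dusp4 (ENSMUSG00000031530) lay on chromosome 8 from 35274451 to 35287048, Dusp5 (ENSMUSG00000034765) on chromosome 19 from 53517540 to 53530862 and Dusp6 (ENSMUSG00000019960) on chromosome 10 from 99099093 to 99103351. Spry4 (ENSMUSG00000024427) lay on chromosome 18 from 38719300 to 38734468 and Etv5 (ENSMUSG00000013089) on chromosome 16 from 22200059 to 22258469. Spry2, Spry4 and Etv5 are on the minus strand and the others on the plus strand. These starts differ from those of GRCm38, so the positions are not comparable with the promoter windows above. The values are sums over whole genes and do not separate exons, introns or isoforms.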

How the data were processed

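The labels give TRIzol extraction and TruSeq Stranded Total RNA libraries. The deposited unit is a signal: estimated read counts per gene, divided by the authors by a DESeq2 size factor of the poscounts type, per the name of the deposited table. STAR, Partek, DESeq2 and mm10 are named in the submitters' processing notes, without roles or versions, and the strand used in counting is not given in the sources used here, so reads of overlapping genes are not separated. Groups and replicate numbers came from the sample titles. Of the gene identifiers, 38066 occur in a GRCm38 annotation, 37557 with the same length but 861 with the same start, so coordinates are the table's, each end following from the start and the gene's length, and the build is not established. Exonic lengths came from that annotation, and promoter sequences from RefSeq.

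A step, taken as 1 read, was found in each library, and 81.8% to 87.2% of low values fell on its multiples within 0.02 of a step. Since the rest were not, whole reads were not recovered and no count test was run. Depth was the total divided by the step. Floors cover counting error only.

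Genes with at least 10 normalized counts in at least 4 samples, 18941 in all, entered limma 3.58.1 in R 4.3.3 as log2(value + 1), in a fit of 3 group means with a mean-variance trend, two-sided, with Benjamini-Hochberg adjustment. Calls needed an adjusted p below 0.05 and a log2 difference of 1 or more either way. Differences are on the log2(value + 1) scale, which understates changes of low genes. The procedure was tested on simulated data. TMM was rewritten in R, with trims of 30% and 5%. The background is the mean of 1750 receptor genes per kilobase. The text names the 9 genes, members of the fixed pathway lists and the 2 nearest genes by pattern. Of the marker and pathway lists, 2 genes are not reported here and entered no list sum or count. Members and lists were chosen with earlier results of these data known. Alternatives were other pseudocounts, filters, scalings, variance models, replicate number as a block, and leaving out libraries. Subtraction of the background, and TMM with the block, were added after seeing the data.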

Additional observations from a re-analysis of the deposited data

Results flagged for a closer look

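Each of the 9 genes was examined in each group for a library far from the others, by Dixon's ratio of gap to range. Of 27 such tests 3 passed, and chance flags about 1 in 20. Spry1 in AML replicate 6 was 231.8 normalized counts, while the other 6 AML libraries were at 16.5 to 79.4. That library also had the highest receptor-gene level of the AML group, at 0.996 per kilobase, and its background for Spry1 was small beside the value. Its part in the Spry1 value was not tested. Spry2 in lineage-negative replicate 1 was 467.5, against 236.9 to 264.4 in the other 3. Without this library the log2 difference of Spry2 between AML and lineage-negative marrow was -1.81, in place of -2.04. Spry4 in AML replicate 4 was 10.1, against 1.08 to 3.70 in the other 6, and it was the AML library above the 3-read floor.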

How the results depend on the processing

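The 3 Sprouty calls against lineage-negative marrow kept their direction and call in every alternative that could be run for them. Leaving out a library changed the number of the 9 genes called lower there to between 3 and 4. Against whole marrow the counts moved. Genes of the 9 called higher in AML numbered 0 under TMM scaling, 0 under quantile scaling and 2 after background subtraction, and 0 to 1 when a library was left out, the 0 coming without AML replicate 3 or whole marrow replicate 1. Those called lower numbered 2 under TMM, 2 under quantile scaling, 0 after background subtraction and 0 with a mean of at least 50, a filter that removes Spry4. Other pathway genes called higher numbered 5 under TMM and 6 under quantile scaling. Those called lower numbered 4 under quantile scaling, 1 after background subtraction and 0 with a mean of at least 50, a filter that removes Dusp8 and Etv1. Between the normal groups, 2 of the 9 were higher under TMM and 3 under quantile scaling, and 1 was lower under TMM. Other pathway genes called higher there numbered 6 under TMM and 8 under quantile scaling, and 6 were lower with a mean of at least 50. The causes were not tested. Shares of all genes called stand above for the deposited, TMM and background-subtracted settings. They were not computed for the other settings here and below. Those counts therefore cannot be set beside a rate over all genes.

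Directions turned for a few genes that were not called. Against whole marrow, Dusp6 was -0.38 under TMM and -0.44 under quantile scaling, Spry1 was -0.17 under TMM, and Spred2 was -0.024 under quantile scaling. Dusp5 against lineage-negative marrow was -0.028 without lineage-negative replicate 4 and between that value and 0.39 whenever a library was left out. Dusp4 between the normal groups was -0.65 under TMM and ran from -0.21 to 0.37 when a library was left out.

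Correlations of deviations between same-numbered libraries ran from -0.2875 to 0.1715. They cannot show whether same-numbered normal samples came from the same mice, which the labels do not give. The main fit treated all libraries as unpaired. With the replicate block, Spred1 joined the genes called lower against lineage-negative marrow, at -1.01, so that 4 of the 9 were called, and the counts of the 9 against whole marrow stayed at 1 and 1. With TMM and the replicate block together, 0 of the 9 were higher and 2 lower against whole marrow, and 6 and 5 other pathway genes. Between the normal groups 3 were higher and 1 lower, with 6 other pathway genes higher. Under that setting Dusp6 was -0.37 and Spry1 -0.42 against whole marrow, and Dusp4 was -0.65 between the normal groups.

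Depth limits Spry4 most, since 6 of 7 AML values were at or under 3 reads, and whole marrow, the shallowest group, also carried the highest receptor-gene level. No alternative separates the cell types of the bulk samples.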
